A study of Homo sapiens with 20 samples.

Results

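The genes of gluconate use and of the pentose phosphate pathway were followed in OVCAR8 tumors from mice given gluconate or PBS. They are 9 genes chosen by symbol from what their proteins do, out of 24196 genes in the deposited table, and all 9 were found there. Gluconate enters metabolism when a kinase adds a phosphate to it. The product, phosphogluconate, is a normal intermediate of the pentose phosphate pathway, which makes NADPH in its oxidative branch and exchanges pentoses with the sugars of glycolysis in its non-oxidative branch. The 9 genes are the gluconate kinase IDNK, the oxidative genes PGLS, PGD and H6PD, the non-oxidative genes RPIA, TKT and TALDO1, and the sodium-coupled carriers SLC13A5, for citrate, and SLC13A3, for dicarboxylates. Enzymes of the pathway outside these 9 genes and the companion lists were not analysed here.

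OVCAR8 is an established human ovarian cancer cell line. The injected cells carried luciferase and the non-targeting guide sgNC, and they were placed in the ovarian fat pad of NSG mice 6 weeks old, which lack T cells, B cells and NK cells. The groups are labelled by the agent, PBS in the control group and sodium gluconate in the other (1 mg/kg), and share the cells, the host and, by the study's methods, a weekly i.p. schedule that lasted 35 days. Each group has 4 bulk RNA-seq libraries. The labels number the replicates without saying whether each came from a mouse of its own, so p values measure only the spread between these samples. The comparison asks which genes differ between tumors with and without the agent.

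The table gives FPKM, the fragments of a gene scaled to its length and to the depth of the library, so levels of different genes can be compared. The steps of the FPKM values showed how many fragments stand behind each library. The PBS libraries had 45605414, 46551535, 39895393 and 3953206 fragments in replicates 1, 2, 3 and 4, and the gluconate libraries had 39325749 to 42786196. PBS replicate 4 was thus 9.95 to 11.8 times shallower than the other 7 libraries, and differences between groups are also given without it. All intervals for single libraries are 95% Poisson intervals on fragments, a count of 0 is given the level of 3 fragments as its limit, and both cover counting error only.

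The 9 genes spanned a range of 8841 times in mean level, from 105 FPKM for TKT to 0.0119 FPKM for IDNK. In falling order of the mean over 8 libraries, TKT was followed by TALDO1 at 99.4 FPKM, PGD at 48.6, PGLS at 37.7, RPIA at 12.0, H6PD at 1.77, SLC13A5 at 1.21, SLC13A3 at 0.437 and IDNK. TKT exceeded TALDO1 in 6 of 8 libraries, and this pair of neighbors did not differ beyond its spread (two-sided exact sign-flip permutation test within libraries, p = 0.0703, adjusted p = 0.0703 over the 8 neighboring pairs). In each of the other 7 neighboring pairs the gene with the higher mean was higher in 8 of 8 libraries, with an exact permutation p of 0.00781, the smallest the test can give, and an adjusted p of 0.00893. These tests used all 8 libraries, and the pairs were formed from the means of the same libraries, so the p values are no independent test of the order. For SLC13A3 and IDNK the libraries include PBS replicate 4, which had 0 IDNK fragments. The ranges of H6PD and SLC13A5 still overlapped, and those of PGD and PGLS did so only through PBS replicate 4. Among all listed genes, 97.7% had a lower mean than TKT, 59.1% a lower mean than H6PD and 19.7% a lower mean than IDNK.

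Differences between groups were tested with limma on log2(FPKM + 0.1), over the 12486 genes with a mean of at least 0.5 FPKM. The fit covered 7 of the 9 genes, and IDNK and SLC13A3 were compared with a two-sided exact permutation test instead, whose smallest p is 0.0286, with all libraries and without PBS replicate 4. Of the 7 genes tested, 0 had an adjusted p under 0.05, as did 0 of all genes tested (0%). At an unadjusted p under 0.05 from limma, 0 of the 7 were found, beside 577 of all genes tested (4.62%). The groups did not overlap in 0 of the 7 genes, beside 436 of all genes tested (3.49%). Without PBS replicate 4, these counts were again 0, 0 and 0 of 7 genes, beside 0 (0%), 772 (6.18%) and 757 (6.06%) of all genes tested. With all libraries, limma voom on the recovered fragments also found 0 of the 7 at an unadjusted p under 0.05, beside 596 of 12486 genes. The median log2 difference of the 7 genes was 0.08, close to 0.07 over all genes tested. Of the 7, gluconate tumors had the higher mean in 6 and the lower in 1, beside 8294 higher and 4192 lower of all genes tested, with 4 higher and 3 lower under median-ratio scaling. Without PBS replicate 4 the median was 0.01, beside 0.00 over all genes tested (-0.0033), and 4 of the 7 were higher and 3 lower. PBS replicate 4 held the lowest PBS value in 6 of the 7 genes, as it did in 63.9% of all genes tested.

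IDNK encodes the kinase that phosphorylates gluconate and occupies bases 83623049 to 83644130 of chromosome 9, plus strand (GRCh38, GENCODE 29). Its transcripts were at the edge of detection. The PBS libraries gave 0.00642, 0.0283, 0.00734 and 0 FPKM in replicates 1, 2, 3 and 4, which are 2, 9, 2 and 0 fragments. The gluconate libraries gave 0.00726, 0.00684, 0.0149 and 0.0240 FPKM, from 2, 2, 4 and 7 fragments. PBS replicate 2 and gluconate replicate 4 were the highest of their groups, and the groups overlapped. In all, 13 fragments came from PBS and 15 from gluconate tumors. At the depth of PBS replicate 4, a count of 0 allows a level of up to 0.111 FPKM (3 fragments), which is above the value of every other library, so this library does not inform on IDNK. The difference in mean log2(FPKM + 0.1) was 0.04 (two-sided exact permutation test, p = 0.686), and -0.01 without PBS replicate 4 (exact permutation test, p = 0.943). The pseudocount of 0.1 exceeds every IDNK value, and with 0.01 in its place the difference was 0.29 (exact permutation test, p = 0.571). That value includes the 0 of PBS replicate 4 and was not computed without this library. No difference in IDNK was detectable at this depth.

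The mean of IDNK was below those of its 6 neighbors, although FRMD3 and KIF27 were also under the minimum of 0.5 FPKM. Its neighbors were chosen for this comparison after the value of IDNK was seen, as the 3 listed protein-coding genes on each side. UBQLN1, which encodes a shuttle factor of the proteasome and lies 15833 bases away, had 33.9 to 35.7 FPKM in the 8 libraries. GKAP1 and KIF27, further along on the same side, had means of 0.823 and 0.339 FPKM. On the other side, FRMD3, 84503 bases away, and TLE1, 1933744 bases away, had means of 0.393 and 9.27 FPKM. RASEF, between them at 559872 bases, had 1.12 to 1.86 FPKM. IDNK was below all 6 neighbors in each of the 7 libraries other than PBS replicate 4, which had no IDNK fragment. PBS replicate 4 stood out in TLE1, with 19.0 FPKM beside 7.44 to 8.34 FPKM elsewhere.

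**Figure D1:**
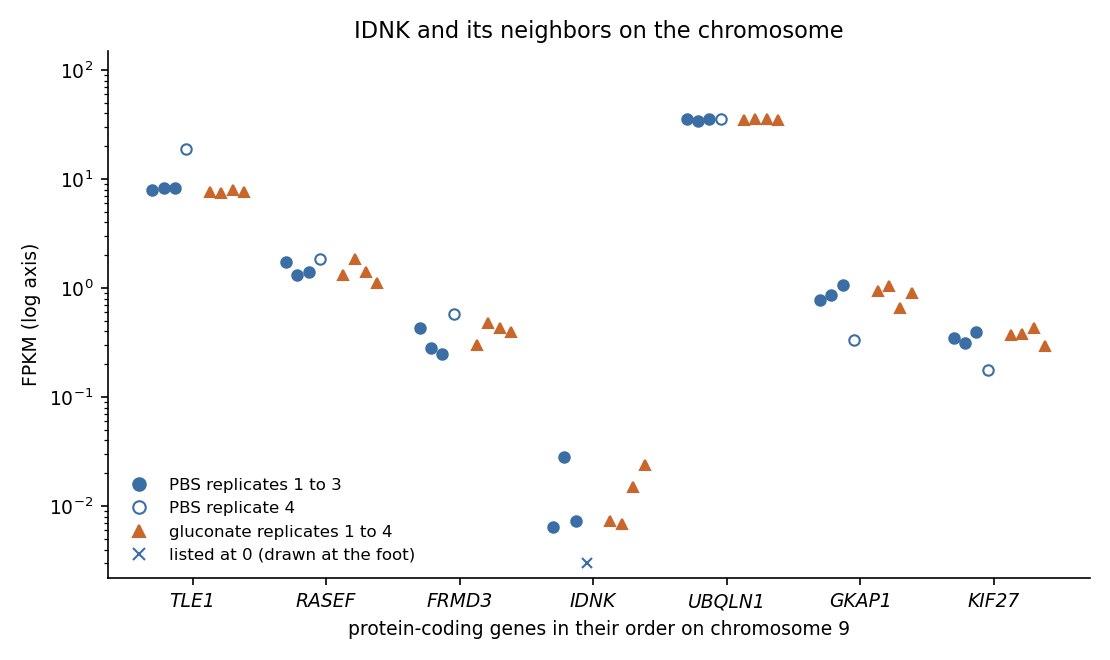
FPKM (log axis) of IDNK and of the 3 listed protein-coding genes on each side of it, in their order along the chromosome, for each tumor library, with symbols for PBS (circles, open for replicate 4) and gluconate (triangles). IDNK, with a highest value of 0.0283 FPKM, lies below every value of its neighbors, of which UBQLN1 is the most abundant at 33.9 to 35.7 FPKM.

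PGLS opens the lactone that precedes phosphogluconate, the compound that IDNK would supply from gluconate, and occupies bases 17511629 to 17521288 of chromosome 19, plus strand. It was at 37.9, 36.7, 34.6 and 31.9 FPKM in PBS replicates 1, 2, 3 and 4. In gluconate replicates 1, 2, 3 and 4 it was at 38.8, 35.1, 41.6 and 44.6 FPKM. Gluconate replicates 1, 3 and 4 were above all PBS libraries, and gluconate replicate 2 lay among them, so the groups overlapped. PBS tumors averaged 35.3 ± 2.63 FPKM (SD, n = 4), and gluconate tumors averaged 40.0 ± 4.04 FPKM (SD, n = 4). The log2 difference was 0.18 (standard error 0.09, 95% interval -0.03 to 0.39), with an unadjusted p of 0.0837 and an adjusted p of 0.740 from limma. Among the 7 genes tested it had the smallest unadjusted p. Without PBS replicate 4 the log2 difference was 0.13, with an adjusted p of 0.813. Leaving out gluconate replicate 2 gave 0.24, with an unadjusted p of 0.0303 and an adjusted p of 0.881 from limma, and only then did the groups not overlap. Over all 16 alternative settings the adjusted p of PGLS ranged from 0.509 to 0.902. In GENCODE, PGLS overlaps a pair of non-coding genes on the other strand, and the sources do not say whether counting used the strand.

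PGD oxidises phosphogluconate to a pentose phosphate and carbon dioxide with the gain of NADPH, and occupies bases 10398592 to 10420144 of chromosome 1, plus strand. It was at 48.1, 50.8, 55.3 and 36.2 FPKM in PBS replicates 1, 2, 3 and 4 and at 48.4, 55.5, 47.6 and 47.1 FPKM in gluconate replicates 1, 2, 3 and 4. PBS replicate 4 was the lowest of the 8 libraries, and its interval of 32.5 to 40.2 FPKM, from 354 fragments, lay below the value of each other library. The part of its low depth in this value was not tested beyond counting error. PBS tumors averaged 47.6 ± 8.14 FPKM (SD, n = 4) and gluconate tumors 49.7 ± 3.94 FPKM (SD, n = 4), a log2 difference of 0.08 (standard error 0.13, 95% interval -0.21 to 0.36, adjusted p = 0.843 from limma). Without PBS replicate 4 the PBS mean was 51.4 ± 3.63 FPKM (SD, n = 3), and the log2 difference turned to -0.05 (standard error 0.08, adjusted p = 0.912 from limma). The direction of PGD thus depended on 1 library, and neither value was beyond the spread between replicates.

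H6PD carries out the opening oxidative steps in the lumen of the endoplasmic reticulum, apart from the cytosolic enzymes, and occupies bases 9234775 to 9271337 of chromosome 1, plus strand. It was at 1.84, 1.57, 1.79 and 1.49 FPKM in PBS replicates 1, 2, 3 and 4 and at 1.98, 1.79, 1.81 and 1.92 FPKM in gluconate replicates 1, 2, 3 and 4. The gluconate libraries were at the upper end, but PBS replicates 1 and 3 were above gluconate replicate 2. The log2 difference was 0.16 (standard error 0.13, 95% interval -0.13 to 0.45, adjusted p = 0.740 from limma), and 0.11 without PBS replicate 4. PGD was 24.4 to 32.4 times as abundant as H6PD in each library. Summed over PGLS, PGD and H6PD, the oxidative genes reached 84.5 ± 10.1 FPKM (SD, n = 4) in PBS and 91.6 ± 1.89 FPKM (SD, n = 4) in gluconate tumors. PBS replicate 4 was lowest at 69.6 FPKM, and the other 7 libraries had 87.8 to 93.6 FPKM.

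**Figure D2:**
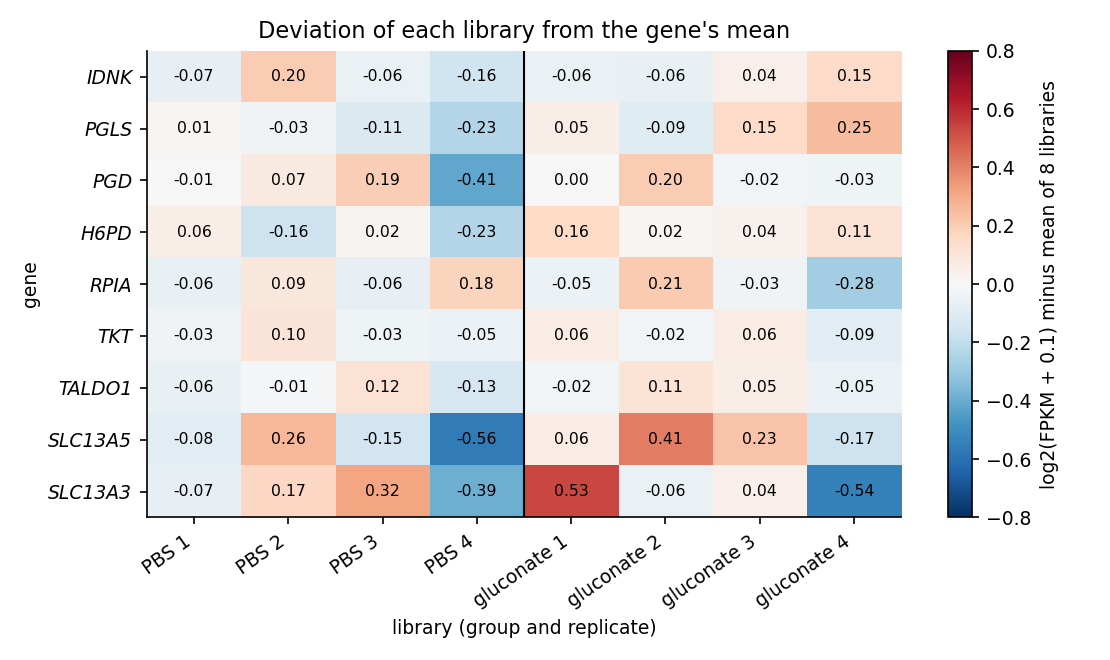
Deviation of each library from the mean of the gene over 8 libraries, in log2(FPKM + 0.1), for the 9 genes in the order of their roles, with PBS libraries to the left of the line and gluconate libraries to the right. PBS replicate 4 reaches -0.41 for PGD, -0.56 for SLC13A5 (11 fragments) and 0.18 for RPIA, where it is the highest PBS library.

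TKT and TALDO1 move carbon units between sugar phosphates in the non-oxidative branch. TKT occupies bases 53224707 to 53256052 of chromosome 3, minus strand, and TALDO1 occupies bases 747329 to 765024 of chromosome 11, plus strand. TKT was at 102.9, 112.7, 102.6 and 101.6 FPKM in PBS replicates 1, 2, 3 and 4 and at 109.4, 103.2, 109.5 and 98.4 FPKM in gluconate replicates 1, 2, 3 and 4. The groups covered almost the same range, with gluconate replicate 4 lowest and PBS replicate 2 highest. Means were 104.9 ± 5.18 FPKM (SD, n = 4) in PBS and 105.1 ± 5.36 FPKM (SD, n = 4) in gluconate tumors. The log2 difference of TKT was 0.00 (0.0025, standard error 0.07), and its 95% interval of -0.15 to 0.15 spans fold changes of 0.903 to 1.11. Without PBS replicate 4 it was -0.01 (adjusted p = 0.976 from limma). Over the 7 deeper libraries the SD of its log2 level was 0.07, smaller than that of 91.4% of all genes tested. The genes were not matched for level, and counting error is larger in genes with fewer fragments.
TALDO1 was at 95.1, 98.5, 107.6 and 90.5 FPKM in PBS replicates 1, 2, 3 and 4 and at 97.9, 106.9, 103.0 and 95.9 FPKM in gluconate replicates 1, 2, 3 and 4. Both groups had libraries near the top and near the bottom of this range. Its log2 difference was 0.04 (standard error 0.07, 95% interval -0.12 to 0.21, adjusted p = 0.838 from limma), and 0.01 without PBS replicate 4. The level of TALDO1 was 0.874 to 1.05 times that of TKT in each library. Its SD over the 7 deeper libraries was 0.07 in log2, smaller than that of 89.3% of all genes tested, again without matching for level.

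RPIA interconverts the pentose phosphates at the junction of both branches and occupies bases 88691644 to 88750935 of chromosome 2, plus strand. It was at 11.5, 12.7, 11.4 and 13.5 FPKM in PBS replicates 1, 2, 3 and 4 and at 11.6, 13.8, 11.7 and 9.86 FPKM in gluconate replicates 1, 2, 3 and 4. RPIA was the only tested gene of the 7 with a lower mean in gluconate tumors and the only one for which PBS replicate 4 was the highest PBS library, at 97 fragments. The log2 difference was -0.07 (standard error 0.11, 95% interval -0.33 to 0.18, adjusted p = 0.831 from limma), and -0.03 without PBS replicate 4. Without gluconate replicate 4, the lowest library, it was 0.01. For TKT, whose difference was near 0, the sign also changed with median-ratio scaling (-0.06) and with 7 other settings. TALDO1 was at -0.02 with median-ratio scaling.

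SLC13A5 brings citrate into the cell together with sodium and is best known from the liver. It occupies bases 6684713 to 6713567 of chromosome 17, minus strand. It was at 1.11, 1.44, 1.06 and 0.771 FPKM in PBS replicates 1, 2, 3 and 4, which rest on 183, 242, 152 and 11 fragments. In gluconate replicates 1, 2, 3 and 4 it was at 1.24, 1.61, 1.40 and 1.04 FPKM, from 180, 248, 199 and 161 fragments. Gluconate replicate 2 was the highest library and PBS replicate 4 the lowest, and the groups overlapped. With 11 fragments, the interval of PBS replicate 4 ran from 0.385 to 1.38 FPKM and covered the values of 4 other libraries. The log2 difference was 0.26 (standard error 0.21, 95% interval -0.21 to 0.74), with an adjusted p of 0.740 from limma. Without PBS replicate 4 it was 0.12 (standard error 0.17, adjusted p = 0.902 from limma). Fold changes from 0.862 to 1.68 lie within the interval for all libraries, so the data set wide limits for this gene. SLC13A5 overlaps the coding gene C17orf100 on the other strand, which had a mean of 2.52 FPKM, and without strand information their fragments cannot be told apart in the shared bases.

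SLC13A3 carries succinate and other dicarboxylates with sodium and is best known from the kidney. It occupies bases 46557823 to 46684467 of chromosome 20, minus strand. It was at 0.399, 0.488, 0.551 and 0.299 FPKM in PBS replicates 1, 2, 3 and 4, which rest on 77, 96, 93 and 5 fragments. In gluconate replicates 1, 2, 3 and 4 it was at 0.657, 0.404, 0.439 and 0.260 FPKM, from 112, 73, 73 and 47 fragments. The gluconate group held both the highest library, replicate 1, and the lowest, replicate 4, whose intervals of 0.541 to 0.790 and 0.191 to 0.346 FPKM did not meet. The difference in mean log2(FPKM + 0.1) was -0.01 (two-sided exact permutation test, p = 0.971), and -0.14 without PBS replicate 4 (exact permutation test, p = 0.629). SLC13A5 was 1.88 to 4.01 times as abundant as SLC13A3. Of the other carriers of the family, SLC13A1 and SLC13A4 had 1 fragment each over all 8 libraries. SLC13A3 overlaps TP53RK on the same strand, a gene with a mean of 6.01 FPKM.

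Promoter windows of RefSeq on GRCh38.p14, from 250 bases before to 50 bases after the RefSeq start of a gene, were found for 7 of the 9 genes. The windows of TKT and SLC13A5 are shown because they belong to the most and the least abundant gene tested with limma, and that of PGD because its enzyme uses the product of gluconate kinase. Capitals mark GGGCGG, the core of a GC box, and TGACNNNGC, the core of the antioxidant response element, on either strand.
TKT, chr3:53255973-53256272, minus strand: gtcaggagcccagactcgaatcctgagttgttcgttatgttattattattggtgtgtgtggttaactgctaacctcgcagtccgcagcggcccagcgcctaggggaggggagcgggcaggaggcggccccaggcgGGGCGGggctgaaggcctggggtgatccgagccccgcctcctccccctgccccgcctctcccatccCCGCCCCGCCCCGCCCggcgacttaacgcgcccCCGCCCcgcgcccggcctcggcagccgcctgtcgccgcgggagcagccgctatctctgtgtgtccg
SLC13A5, chr17:6713320-6713619, minus strand: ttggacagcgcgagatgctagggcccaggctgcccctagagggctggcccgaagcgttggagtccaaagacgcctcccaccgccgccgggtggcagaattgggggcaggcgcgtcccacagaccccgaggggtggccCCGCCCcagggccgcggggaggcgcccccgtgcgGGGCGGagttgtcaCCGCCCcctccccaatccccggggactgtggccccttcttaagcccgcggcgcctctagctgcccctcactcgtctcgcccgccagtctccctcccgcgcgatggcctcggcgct
PGD, chr1:10398814-10399113, plus strand: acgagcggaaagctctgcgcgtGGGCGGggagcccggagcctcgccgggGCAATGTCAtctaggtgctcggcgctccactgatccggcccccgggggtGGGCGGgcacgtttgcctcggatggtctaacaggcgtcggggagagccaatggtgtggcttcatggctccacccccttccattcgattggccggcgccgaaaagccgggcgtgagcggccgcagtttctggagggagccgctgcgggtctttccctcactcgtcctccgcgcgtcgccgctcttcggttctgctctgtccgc
TKT had 5 matches to GGGCGG, of which the 3 in the longest run of capitals overlap, SLC13A5 had 3 and PGD had 2. TALDO1 had 2, PGLS and RPIA had 1 each and H6PD had 0, and 45.0% of 35116 promoters of the same length hold a match. PGD alone among the 7 had a match to TGACNNNGC, which 13.3% of promoters hold. The windows of TKT and SLC13A5 had a GC content of 70.7% and 74.0%, above the median of 58.7% over all promoters, although the mean levels of these genes differed 86.9 times. H6PD had the lowest GC content of the 7, at 47.3%. The RefSeq start lies 30, 198 and 472 bases inside the GENCODE gene for TKT, SLC13A5 and PGD, and 5072 bases inside for H6PD, whose window may thus miss another start. A match describes letters only, and binding was not measured.

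With PBS replicate 4 set aside, over 7 libraries, the gene with the most similar profile among 12485 candidates was found for each tested gene, by the root mean square difference of mean-centered log2(FPKM + 0.1). It was FNBP4 for PGD (0.0269), RPS15A for H6PD (0.0228), CRIM1 for PGLS (0.0267), WDCP for RPIA (0.0331), POLR2D for TKT (0.0234), LNPEP for TALDO1 (0.0214) and PRKCQ for SLC13A5 (0.0630). None of the 7 was a member of the 9 genes or of the lists below. For comparison, the root mean square deviation of the genes from their own means was 0.0638 for TKT and 0.209 for SLC13A5.

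Companion lists placed the 9 genes among other enzymes. Of 11 other genes of pentose phosphate and ribose metabolism, 10 were listed and 6 were tested. In the 6, the median log2 difference was 0.13 with all libraries and 0.07 without PBS replicate 4, beside 0.07 and -0.0033 over all genes tested. With all libraries, 4 of the 6 were higher and 2 lower in gluconate tumors, beside 8294 higher of 12486 over all genes tested. Without PBS replicate 4, 5 were higher and 1 lower, beside 6103 higher over all genes tested. With all libraries, 0 of the 6 had an adjusted p under 0.05 from limma. The most abundant was PRPS1, which makes the activated ribose of nucleotide synthesis, at 37.5 FPKM. PRPS1 was also the only gene of the 6 whose groups did not overlap, with 36.0 to 37.5 FPKM in PBS and 38.0 to 39.7 FPKM in gluconate tumors and a log2 difference of 0.08 with and without PBS replicate 4 (adjusted p = 0.740 and 0.816 from limma). Over all genes tested, 3.49% had groups that did not overlap. PGM2, which interconverts pentose phosphates, had a log2 difference of -0.12 with all libraries and of -0.25 without PBS replicate 4, where its unadjusted p from limma was 0.0324 and its adjusted p 0.802. The transketolase relatives TKTL1 and TKTL2 had 1 and 3 fragments over all 8 libraries, beside 100123 for TKT.

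Other enzymes that make NADPH were the next list, with 9 listed and 8 tested. Its counts of higher genes stand beside 8294 of 12486 over all genes tested, whose median was 0.07, and beside 6103 without PBS replicate 4, 6409 under median-ratio scaling and 6557 under quantile normalization. All 8 had a higher mean in gluconate tumors with all libraries, with a median log2 difference of 0.09, 7 had one under median-ratio scaling, 8 under quantile normalization, and 6 without PBS replicate 4, with a median of 0.06. MTHFD1, a folate enzyme, was the most abundant at 110.3 FPKM. ALDH1L2, a mitochondrial folate enzyme, had a log2 difference of 0.43 and the only unadjusted p under 0.05 of the 8 (0.0377, adjusted p = 0.740 from limma), and 0.33 without PBS replicate 4 (unadjusted p = 0.0683 from limma). Over all genes tested with all libraries, 577 (4.62%) had an unadjusted p under 0.05 from limma. Of 10 genes of citrate handling, 9 were listed and 7 tested, with a median log2 difference of 0.00 (0.0024), with 4 genes higher and 3 lower, and with 2 higher and 5 lower under median-ratio scaling. The median was -0.01 without PBS replicate 4, again with 2 higher and 5 lower. The citrate synthase CS was the most abundant at 120.0 FPKM. SLC25A10, a mitochondrial dicarboxylate carrier, had -0.13 with all libraries and -0.30 without PBS replicate 4, where its unadjusted p from limma was 0.0308 and its adjusted p 0.802.
The list of NRF2 targets, genes of the antioxidant response to which several pentose phosphate genes are often assigned, had 10 genes listed and 8 tested. All 8 were higher in the mean of gluconate tumors, as were 8294 of the 12486, with a median of 0.10, but 4 of 8 were so under median-ratio scaling and 7 of 8 under quantile normalization, beside 6409 and 6557 of the 12486. It was also 4 of 8 without PBS replicate 4, with a median of 0.02. NQO1 was the most abundant at 75.4 FPKM, with a log2 difference of 0.29 (adjusted p = 0.740 from limma), and 0.22 without PBS replicate 4. In all 4 lists together, 0 genes had an adjusted p under 0.05 with or without PBS replicate 4, as did 0 of all genes tested.

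Markers of cell types were listed by their human symbols. In bulk samples, fewer cells of a type and less RNA per cell cannot be told apart. Host cells are from mice, so levels of human symbols do not show how many host cells the tumors held. Of 6 ovarian carcinoma markers, KRT8 was the most abundant at 700 to 1051 FPKM and PAX8 was at 32.4 to 50.7 FPKM, while MUC16 reached at most 0.00168 FPKM. WT1, singled out after its values were seen, was at 6.58 FPKM in PBS replicate 4 and at 1.07 to 1.82 FPKM elsewhere. Of the 5 markers tested, PAX8 and MSLN were higher in gluconate tumors and KRT8, KRT18 and WT1 lower, with log2 differences of 0.13, 0.24, -0.20, -0.33 and -0.67, and of 0.03, 0.24, -0.21, -0.31 and -0.14 without PBS replicate 4. In the marker lists with tested genes, 0 genes had an adjusted p under 0.05 from limma or an unadjusted p under 0.05. Over all genes tested, these counts were 0 and 577 (4.62%). The summed level of all 6 markers, carried by KRT8 and KRT18, was 1456, 1880, 2205 and 1845 FPKM in PBS replicates 1, 2, 3 and 4 and 1361 to 1770 FPKM in gluconate libraries. Human markers of hepatocytes and kidney proximal tubule cells, where the SLC13 carriers are best known, were at low levels. Of the hepatocyte markers, ALB and APOA1 were listed, and most of their sum came from APOA1 except in PBS replicate 2, and in PBS replicate 4, where both were at 0. It was 0.0336, 0.0353, 0.280 and 0 FPKM in PBS replicates 1, 2, 3 and 4 and 0.296, 0.197, 0.254 and 0.179 FPKM in gluconate replicates 1, 2, 3 and 4. All gluconate libraries were above PBS replicates 1 and 2 and PBS replicate 3 lay among them, a difference that was not tested, while ALB stayed at or below 0.0188 FPKM. In PBS replicate 4, 1 fragment per kilobase stands for 0.253 FPKM, so its 0 does not place it below the other libraries. The 3 tubule markers SLC34A1, LRP2 and CUBN summed to 0.0435 to 0.234 FPKM, with the highest sum in PBS replicate 4. Most of that sum was CUBN, at 0.161 FPKM in PBS replicate 4 and at 0.0420 to 0.0742 FPKM elsewhere. PBS replicate 4 is the shallowest library, and counting error was not assessed for these markers.
Of 5 fibroblast markers, COL1A1 was the most abundant, COL1A2 and DCN were below 0.1 FPKM, and the sum of 44.4 FPKM for PBS replicate 4 compares with 127 to 188 FPKM for the other libraries. Nearly all of the sum was COL1A1, with 41.4 FPKM in PBS replicate 4. All 3 fibroblast markers tested, COL1A1, LUM and PDGFRB, had a higher mean in gluconate tumors, with a median log2 difference of 0.42 with all libraries and of 0.20 without PBS replicate 4. PBS replicate 4 was the lowest library in this sum and in PGD, whose interval lay below the other libraries, and the highest in WT1, and the part of cell makeup in those values was not tested. The myeloid list summed to 20.6 to 28.8 FPKM, nearly all from CD68, and CD14 and PTPRC stayed below 0.1 FPKM. The 2 myeloid markers tested, CD68 and ITGAM, were lower in gluconate tumors, each with a log2 difference of -0.16. Without PBS replicate 4 the differences were -0.17 for CD68 and 0.04 for ITGAM. ITGAM was at 1.36 FPKM in PBS replicate 4 and at 0.691 to 0.810 FPKM elsewhere. The endothelial, adipocyte and red blood cell lists summed to at most 0.641, 0.0778 and 0.340 FPKM, led by PECAM1, PLIN1 and HBA1. All symbols are human, and how fragments of the mouse host were handled is not given in the sources used here.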

How the data were processed

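Poly(A) RNA of 8 tumors was sequenced, and the authors deposited FPKM values made on GRCh38; the aligner and annotation are not given in the sources used here. The columns carry no sample label. They were assigned to PBS and gluconate from the axis of a figure of the study, and the number in each column name was read as the replicate number. Libraries of the 12 knockout cell samples were not analysed here.

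Gene lengths and fragments were recovered from the steps of the FPKM values (98.5% of genes gave a whole length within 0.001 bases). Differences were tested with limma 3.58.1 (lmFit, eBayes with trend) in R 4.3.3 on log2(FPKM + 0.1), two-sided, without a replicate block, for genes with a mean of at least 0.5 FPKM, and p values were adjusted by Benjamini-Hochberg across every tested gene. Of the genes below that mean, only IDNK and SLC13A3 were compared by exact permutation, over 70 labelled splits. The scripts were tested on simulated data. Python 3.11.15, numpy 2.4.6, pandas 2.3.3, scipy 1.17.1 and matplotlib 3.10.9 were used.

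All 9 genes were named, and from each companion list the most abundant gene and those past an unadjusted p of 0.05; for each tested gene, the gene with the most similar profile was added. PRPS1 is also the most abundant of its list. PGM2, SLC25A10, WT1 and the neighbors of IDNK were chosen after their values were seen. The members and lists were chosen with earlier results of these data known.

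Alternatives were pseudocounts of 1 and 0.01, no filter, a minimum mean of 1 FPKM, median-ratio scaling, quantile normalization, a replicate block, leaving out each library, and limma voom on recovered fragments, which was added after seeing the data.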

Additional observations from a re-analysis of the deposited data

Results flagged for a closer look

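In 46 groups of 4 libraries, a library was looked for whose gap to the nearest other was large beside the range of its group. There were 6 such values, from 4 libraries, where chance gives about 1 in 20 groups (2.3 of 46), and 3 of the 6 belong to PBS replicate 4.

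PGD was at 55.5 FPKM in gluconate replicate 2 and at 47.1 to 48.4 FPKM in the other gluconate libraries. TKT was at 112.7 FPKM in PBS replicate 2 and at 101.6 to 102.9 FPKM in the other PBS libraries. PBS replicate 4 had 3953206 fragments, beside 39895393 to 46551535 in the other PBS libraries, and 15514 genes above 0, beside 20014 to 20117. The hepatocyte markers summed to 0.280 FPKM in PBS replicate 3 and to 0 to 0.0353 FPKM in the other PBS libraries, beside 0.179 to 0.296 FPKM in the gluconate libraries, so PBS replicate 3 lay within the gluconate range. The 0 belongs to PBS replicate 4, which at its depth does not inform on this sum, and the flag rests in part on that library. The kidney proximal tubule markers summed to 0.234 FPKM in PBS replicate 4 and to 0.0640 to 0.0869 FPKM in the other PBS libraries. Most of the value of PBS replicate 4 was CUBN, at 0.161 FPKM in this shallowest library, and its counting error was not assessed.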

How the results depend on the processing

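Under 16 alternative settings, 140 differences of the 9 genes were recomputed, of which 122 kept their direction and 18 did not: 8 of TKT, 5 of SLC13A3, 2 of IDNK and 1 each of PGD, RPIA and TALDO1. H6PD, PGLS and SLC13A5 kept theirs in every setting run, but not their size. With all libraries, log2 differences over the settings ran from 0.065 to 0.17 for H6PD, 0.11 to 0.18 for PGLS, 0.15 to 0.29 for SLC13A5, 0.0048 to 0.076 for PGD, -0.14 to -0.042 for RPIA and 0.0039 to 0.29 for IDNK. Median-ratio scaling gave log2 differences of -0.063 for TKT and -0.021 for TALDO1, quantile normalization gave -0.0037 for TKT, limma voom gave -0.0039 for TKT, and a pseudocount of 1 gave 0.0018 for SLC13A3. SLC13A3 was at -0.061 with median-ratio scaling and at -0.12 with quantile normalization, beside -0.011 as reported. The cause was not tested.

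Leaving out each library in turn, log2 differences ran from -0.0071 to 0.11 for IDNK, 0.13 to 0.24 for PGLS, -0.050 to 0.15 for PGD, 0.11 to 0.21 for H6PD, -0.15 to 0.0071 for RPIA, -0.017 to 0.037 for TKT, 0.01 to 0.09 for TALDO1, 0.12 to 0.40 for SLC13A5 and -0.19 to 0.17 for SLC13A3. Of the 9 genes, as far as limma fitted them, 0 to 1 were past an unadjusted p of 0.05. The 1 was PGLS without gluconate replicate 2, where 7 of the 9 were fitted, beside 395 of 12486 over all genes tested. The smallest adjusted p of any of the 9 from limma was 0.509, and the smallest exact permutation p of IDNK and SLC13A3 was 0.2, where the test can give no less than 0.0286, also with a library left out. With a replicate block it can give no less than 0.125 and could not pass 0.05. IDNK and SLC13A3 could not be fitted with limma voom or with a minimum mean of 1 FPKM.

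Over all genes tested, 577 had an unadjusted p under 0.05 from limma, 1028 of 24196 without the filter, and 267 (without gluconate replicate 4) to 1214 (without PBS replicate 1) with a library left out. It was 873 without PBS replicate 2 and 289 without gluconate replicate 3. The count at an adjusted p under 0.05 was 0 in every setting run.

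Deviations of libraries with the same number correlated with r of -0.178 to 0.165, not above 0.1 in every pair. Of 4 PBS libraries, 2 correlated best with the gluconate library of their own number. The labels do not say what the number stands for, and whether libraries with the same number share a batch was not tested. With a replicate block the count over all genes was 470, and no limma call of the 7 genes tested changed.
Depth limits IDNK, with 28 fragments in all, and PBS replicate 4, with 11 fragments of SLC13A5 and 5 of SLC13A3. A p above 0.05 does not show that levels were equal.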
